A study of Arabidopsis thaliana with 4 samples.

Results

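The salicylate output genes of *A. thaliana* described here are 10 loci read by 17 of the 43603 probes tested on the array, out of 29030 loci in all. They are *PR1* (AT2G14610), *PR2* (AT3G57260, named *BGL2* in RefSeq), *PR5* (AT1G75040), *PCC1* (AT3G22231) with its neighbours AT3G22235 and AT3G22240, *PCR1* (AT1G14880), *PCR2* (AT1G14870), *GRX480* (AT1G28480) and *ACD6* (AT4G14400). The members were the probes whose locus in the array files was on this list, and the list was drawn up with log2 ratios of these same arrays in view. The ratios below are therefore a description of the chosen loci, with no test for any member.

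The exposed samples were whole Col0 seedlings, roots and shoots together, held in the air of the volatile compounds (mVOCs) of the bacterium *E. amylovora*, and their controls were Col0 seedlings grown without the bacteria. Seedlings stood on half-strength Murashige–Skoog medium in one compartment of a divided Petri dish, so that air was the link to the nutrient agar of the other compartment. They were about a week old and were exposed for under a day according to the study's methods. Each of 4 two-colour Agilent arrays, numbered as replicates 1 to 4, compared 1 exposed sample labelled with Cy5 with 1 control sample labelled with Cy3. The free-text description of all 4 samples speaks of embryonic stem cells, against every other label, and was not used. The dyes were never swapped, so a dye effect that remained after normalization and the effect of exposure cannot be told apart.

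Salicylic acid is a plant defence hormone made mainly through the isochorismate pathway in chloroplasts. Its receptors include NPR1, which works with TGA transcription factors to switch on secreted antimicrobial proteins. Of these, *PR1*, *PR2* and *PR5* are the classical readouts. *PCC1* is a small gene under the control of pathogens and the circadian clock, *GRX480* encodes a glutaredoxin that binds TGA factors, and *ACD6* encodes an ankyrin repeat membrane protein that promotes salicylate signalling. *PCR1* and *PCR2* belong to the plant cadmium resistance family of small cysteine-rich membrane proteins.

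Among the members, probe sequences were at hand for *PR1* and *PCR1* alone, and both are shown. The ratios of these probes depended on the background correction. Both probes are 60 bases long, with a GC content of 43.3% for *PR1* and 38.3% for *PCR1*, printed 5′ to 3′.
PR1 probe A_84_P17268: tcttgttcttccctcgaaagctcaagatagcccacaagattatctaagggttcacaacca
PCR1 probe A_84_P145049: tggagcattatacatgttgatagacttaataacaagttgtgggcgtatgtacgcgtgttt

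Values of the arrays are brightnesses of spots and their number limits the precision. The share of spots well above background was between 74.6% and 78.8% in the exposed channel and between 74.2% and 76.4% in the control channel, and no spot was saturated. All 17 member probes were well above background in all 8 readings. Replicate 4 stood apart from the other arrays. Its local background reached 32072 in the exposed channel and 59573 in the control channel at a few spots, whereas on the other 3 arrays it did not pass 95 in the exposed channel or 69 in the control channel. The background model of replicate 4 then had an SD of 212 in the exposed channel and 423 in the control channel, against 0.937 to 2.24 on the other arrays and channels. With the spots that the software marked for a non-uniform background left out, the SDs of replicate 4 were 1.36 in the exposed channel and 0.974 in the control channel. The SD of all log2 ratios on replicate 4 was 0.11, and 0.17 with the marked spots left out. Values of dim members are given both ways below.

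A log2 ratio is exposed over control, so that a positive one means a higher level in exposed seedlings. A probe or locus is called where its mean log2 ratio over the 4 arrays has an adjusted p below 0.05 in limma, with Benjamini-Hochberg adjustment over the whole array. Of the member probes, 11 of 17 were called higher and 0 lower. Over all 43603 probes, 9.62% were called higher and 8.58% lower. At the level of loci, each the mean of its probes, 7 of 10 members were called higher and 0 lower, where the whole array had 9.33% of loci called higher and 7.96% lower. The normalized intensities of the exposed and control samples did not overlap for the same number of probes, 11, all higher in exposed seedlings, against 7.5% of 43585 probes. Because the loci were chosen from this contrast, nothing is read from these counts. The median log2 ratio was 0.33 over the 10 loci and 0.0029 over all loci.

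**Figure D1:**
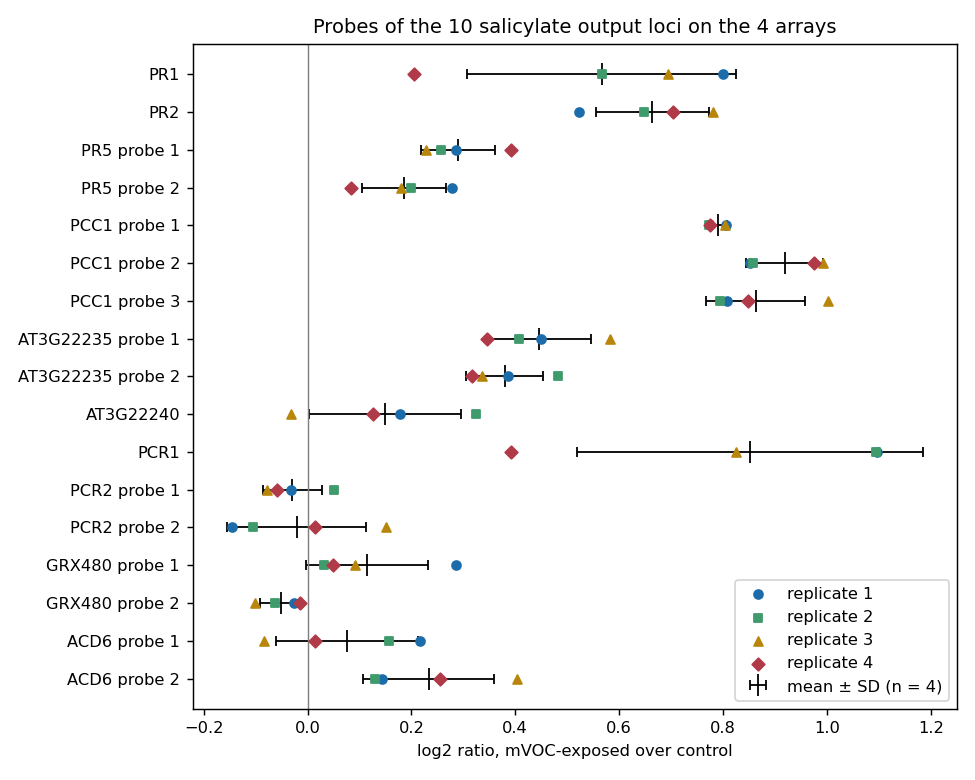
Log2 ratio of exposed over control seedlings (horizontal axis) for each of the 17 member probes (rows), with 1 symbol per array and the mean ± SD of the 4 arrays as a bar. The 3 *PCC1* probes lie between 0.77 and 1.00 on every array, the *PR1* and *PCR1* probes are lowest on replicate 4, and the *PCR2* probes lie on both sides of 0.

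*PR2* encodes a secreted β-glucanase that cuts the glucan of fungal cell walls. Its normalized intensity was 4210, 4568, 4792 and 4826 in exposed seedlings of replicates 1 to 4, against 2930, 2914, 2789 and 2964 in control seedlings. The groups did not overlap, and each exposed sample was higher than its control. The log2 ratios were 0.52, 0.65, 0.78 and 0.70, with a mean of 0.66 ± 0.11 (SD, n = 4), or 1.58-fold.

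*PR1*, the small secreted protein most often used as a marker of salicylate signalling, was dim. Its normalized intensity was 365, 353, 373 and 330 in exposed seedlings and 210, 238, 231 and 286 in control seedlings. The groups did not overlap, but on replicate 4 the exposed sample was the lowest of its group and the control the highest. The log2 ratios were 0.80, 0.57, 0.69 and 0.21 (mean 0.57 ± 0.26 SD, n = 4, 1.48-fold). With the marked spots left out, the ratio of replicate 4 was 0.77 and the mean was 0.71 ± 0.10. The scanner software's own ratio, which has no offset added to the intensities, was 1.11, 0.94, 1.08 and 1.11, with a mean of 1.06 ± 0.081, or 2.08-fold. Before correction, the median intensity of the *PR1* spot was 314, 268, 331.5 and 293 in exposed seedlings and 173.5, 167, 188 and 158 in control seedlings, so that replicate 4 had the lowest control reading of all before its background was modelled. The direction was the same on every array under each of these settings, and the size of the change depended on the setting.

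*PR5*, a thaumatin-like protein, was read by 2 probes and changed less. The brighter had normalized intensities of 1420, 1546, 1526 and 1640 in exposed seedlings, against 1165, 1295, 1302 and 1251 in control seedlings. Its log2 ratios were 0.29, 0.26, 0.23 and 0.39 (mean 0.29 ± 0.071 SD, n = 4). The other probe had a mean of 0.19 ± 0.081 and was also higher on all 4 arrays. This second probe was not called without replicate 1, with plain background subtraction or with the array not used as a block. In the deposited ratios of replicates 2 to 4 neither *PR5* probe was called. The intensities of exposed and control samples did not overlap for either probe. As a locus *PR5* stood at 0.24, or 1.18-fold.

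**Figure D2:**
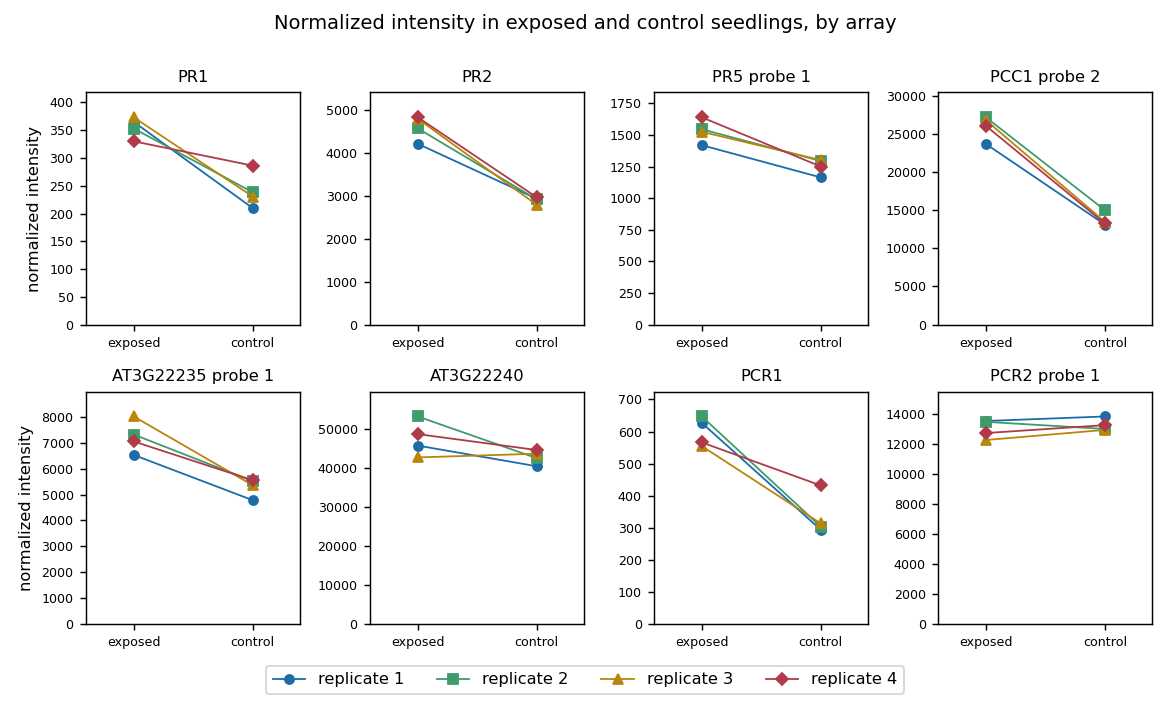
Normalized intensity (vertical axes, linear, starting at 0) of 8 member probes in exposed (left) and control (right) seedlings, with 1 line per array. For *PR1*, *PR2*, *PR5*, *PCC1*, AT3G22235 and *PCR1* every exposed sample lies above every control sample, and for AT3G22240 and *PCR2* the groups overlap.

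*PCC1* had a mean of 0.86, or 1.81-fold, as a locus, the fifth highest ratio of all 29030 loci. Its 3 probes are bright. The first had normalized intensities of 26565, 23557, 25440 and 26329 in exposed seedlings and 15188, 13789, 14564 and 15380 in control seedlings. Every exposed sample was above every control sample, and the ratios varied little, at 0.81, 0.77, 0.80 and 0.78 (mean 0.79 ± 0.018 SD, n = 4). The other 2 probes had means of 0.92 ± 0.075 and 0.86 ± 0.095. The lowest ratio of any *PCC1* probe on any array was 0.77 and the highest 1.00. The scanner software's ratios of the 3 probes had means between 0.80 and 0.89, so that this change hardly depended on the background correction.

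AT3G22235 follows *PCC1* in gene order, with no other protein-coding gene of the RefSeq annotation between them. Its brighter probe had normalized intensities of 6536, 7327, 8027 and 7059 in exposed seedlings, against 4785, 5524, 5364 and 5559 in control seedlings, without overlap. The log2 ratios were 0.45, 0.41, 0.58 and 0.35 (mean 0.45 ± 0.10 SD, n = 4). The second probe had a mean of 0.38 ± 0.074, and the locus stood at 0.41, or 1.33-fold.

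AT3G22240, next in order, was the brightest member. Its probe had normalized intensities of 45781, 53271, 42747 and 48736 in exposed seedlings and 40476, 42559, 43700 and 44648 in control seedlings, and the groups overlapped. The log2 ratios were 0.18, 0.32, -0.032 and 0.13 (mean 0.15 ± 0.15 SD, n = 4), and the locus was not called. Without replicate 3 its mean was 0.21 and it was called higher, as it was with the marked spots left out (0.17). Its probe was also called higher by the scanner software's ratio (0.16) and, at an unchanged ratio, with slide as a fixed block. Centring each array on its median in place of the intensity-dependent loess gave 0.58, again called higher.

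The loci that adjoin the 3 genes had smaller ratios. AT3G22230, just before *PCC1*, stood at 0.050 and AT3G22250, just after AT3G22240, at -0.0058, and neither was called. Farther off, AT3G22210 stood at 0.35 and was called higher, above AT3G22240, and AT3G22200 stood at -0.31 and was called lower. Along the run the ratios were 0.86, 0.41 and 0.15, and with median centring they were 1.17, 0.60 and 0.58, so that the second step rests on the loess scaling. The ranges over the 4 arrays of *PCC1* (0.81 to 0.93) and AT3G22235 (0.33 to 0.46) did not overlap, and the range of AT3G22240 (-0.032 to 0.32) lay just below that of AT3G22235.

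**Figure D3:**
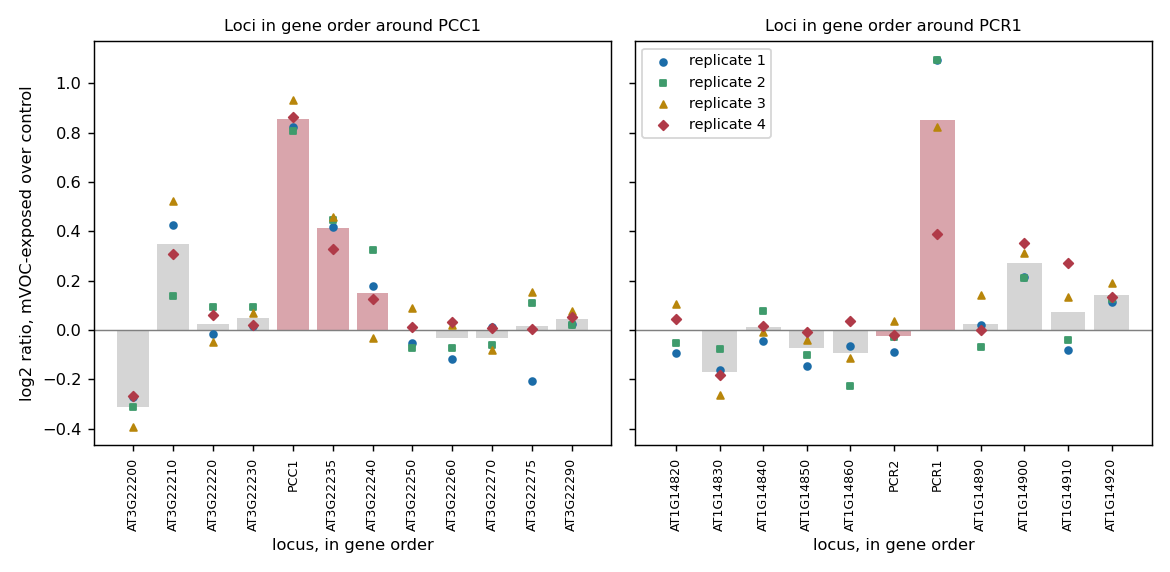
Log2 ratio of exposed over control seedlings (vertical axis) for loci in gene order around *PCC1* (left) and *PCR1* (right), with bars for the mean of 4 arrays, 1 symbol per array and members in red. *PCC1* (0.86), AT3G22235 (0.41) and AT3G22240 (0.15) stand side by side, next to AT3G22230 (0.050) and AT3G22250 (-0.0058), with AT3G22210 (0.35) and AT3G22200 (-0.31) farther left, and *PCR2* (-0.025) adjoins *PCR1* (0.85).

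*PCR1* had the widest spread among the members. Its normalized intensity was 627, 647, 554 and 566 in exposed seedlings, against 293, 303, 313 and 432 in control seedlings, without overlap, and the control of replicate 4 stood above the other 3 controls. The log2 ratios were 1.096, 1.095, 0.83 and 0.39 (mean 0.85 ± 0.33 SD, n = 4, 1.80-fold). With the marked spots left out, the ratio of replicate 4 was 0.88 and the mean 0.97 ± 0.14. The scanner software's ratio was 1.24, 1.39, 1.33 and 1.25 (mean 1.30 ± 0.068, 2.47-fold). Before correction the spot read 592, 541.5, 531 and 555 in exposed seedlings and 257, 226, 261 and 252 in control seedlings, with replicate 4 within the range of the other arrays.

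*PCR2*, the adjoining gene and a membrane protein of the same family, showed no such difference. Its first probe had normalized intensities of 13556, 13498, 12283 and 12748 in exposed seedlings and 13857, 13024, 12959 and 13277 in control seedlings, which overlapped, with a mean log2 ratio of -0.029 ± 0.057. The second probe gave -0.021 ± 0.13 (SD, n = 4 each). As a locus it stood at -0.025 and was not called. This sign depended on the scaling, since median centring gave 0.26, called higher, and the scanner software's ratio gave -0.067, called lower. *PCR1* had the higher ratio of the pair on every array, and its mean under median centring was 0.88.

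*GRX480* was read by 2 probes that pointed in opposite directions. The brighter probe had normalized intensities of 1106, 961, 1131 and 1033 in exposed seedlings, against 907, 939, 1063 and 999 in control seedlings, with a mean log2 ratio of 0.11 ± 0.12 (SD, n = 4). The dim probe read 130, 134, 129 and 130 in exposed seedlings and 132, 140, 139 and 131 in control seedlings, with a mean of -0.051 ± 0.040. With the marked spots left out, the mean of the dim probe was -0.079 ± 0.043, and its ratio on replicate 4 went from -0.014 to -0.12. Exposed and control samples overlapped for both probes and neither was called. The locus stood at 0.032 and at -0.072 by the scanner software's ratio, so that it has no settled direction here.

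*ACD6* stood at 0.15, or 1.11-fold, as a locus. Its first probe had a mean log2 ratio of 0.077 ± 0.14 and was not called. The second read 3714, 3671, 3929 and 3603 in exposed seedlings and 3363, 3355, 2970 and 3018 in control seedlings, without overlap, with ratios of 0.14, 0.13, 0.40 and 0.26 (mean 0.23 ± 0.13 SD, n = 4). The locus was called with all 4 arrays. It was not called without replicate 1 (0.15), without replicate 4 (0.16) or with plain background subtraction (0.16), nor by its brighter probe alone (0.077). Median centring gave 0.35.

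Ordered by mean log2 ratio, the loci ran *PCC1* (0.86), *PCR1* (0.85), *PR2* (0.66), *PR1* (0.57), AT3G22235 (0.41), *PR5* (0.24), *ACD6* (0.15), AT3G22240 (0.15), *GRX480* (0.032) and *PCR2* (-0.025). The range of *PCR1* over the arrays (0.39 to 1.096) overlapped those of *PCC1* (0.81 to 0.93), *PR2* (0.52 to 0.78) and *PR1* (0.21 to 0.80), so that its place among them is within the spread. *PR2* and *PR1* overlapped as well, and so did *PR1* and AT3G22235, while *PCC1* lay above both *PR2* and *PR1* on every array. *PR5* lay below AT3G22235 and above *ACD6* on every array, and the last 4 loci overlapped in part. Under the scanner software's ratio *PCR1* (1.30) and *PR1* (1.06) stood above *PCC1* (0.85) and *PR2* (0.62), so that the order of the leading loci depends on how the ratio is made. The called locus with the smallest ratio was *ACD6* and the uncalled locus with the largest was AT3G22240, and these lay next to each other in the order. The arrays lay on 2 slides, with replicates 1 and 2 on slide 1 and replicates 3 and 4 on slide 2. The ratio on slide 1 and slide 2 was 0.68 and 0.45 for *PR1*, 0.59 and 0.74 for *PR2*, 0.25 and 0.22 for *PR5*, 0.82 and 0.90 for *PCC1*. It was 0.43 and 0.39 for AT3G22235, 0.25 and 0.047 for AT3G22240, 1.096 and 0.61 for *PCR1*, and 0.16 and 0.15 for *ACD6*. These 8 loci had a positive ratio on both slides. *GRX480* had 0.057 on slide 1 and 0.0058 on slide 2, and *PCR2* had -0.057 and 0.0075.

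**Figure D4:**
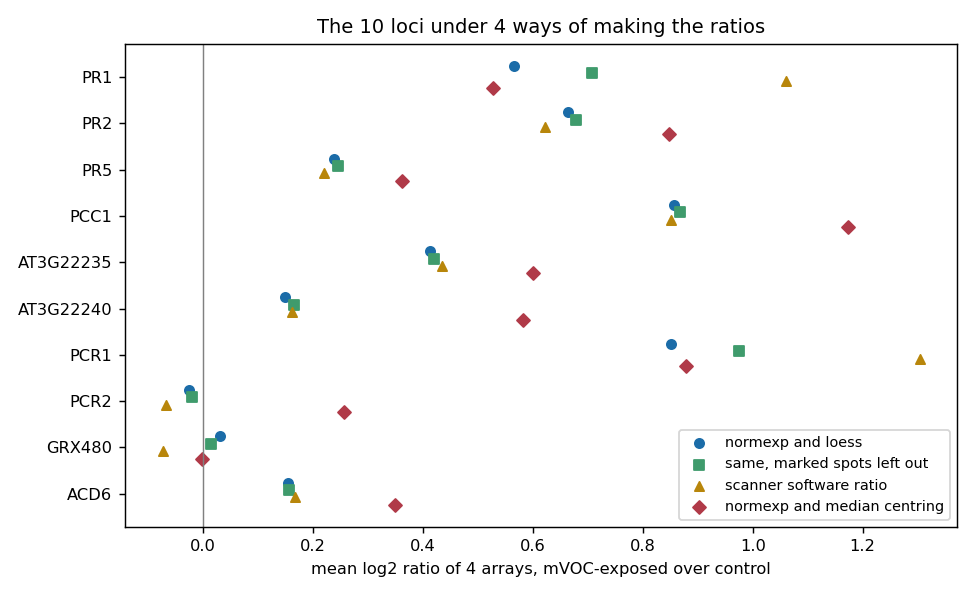
Mean log2 ratio of exposed over control seedlings over 4 arrays (horizontal axis) for the 10 loci (rows) under 4 ways of making the ratios, told apart by symbol. *PR1* and *PCR1* reach 1.06 and 1.30 with the scanner software's ratio, *PCC1* and AT3G22240 reach 1.17 and 0.58 with median centring, and *PCR2* and *GRX480* lie on both sides of 0.

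The genes that make, carry, sense and inactivate salicylate were followed as a list of 46 core loci, all of which were measured. Of these, 6 were called higher and 9 lower, with a median log2 ratio of -0.0088, close to the 0.0029 of all loci. Over the whole array 9.33% of loci were called higher and 7.96% lower. With median centring 12 were called higher and 2 lower, so that the balance of directions in this list depends on the scaling. Median centring also called more of the whole array, with 8783 probes higher and 8417 lower, against 4196 and 3743 with loess. The isochorismate synthases *ICS1* and *ICS2*, which make the precursor of salicylate, both had -0.14, and *PBS3*, which joins glutamate to it, had -0.24, all 3 called lower. None of these 3 calls held without replicate 1, with plain background subtraction or with median centring, where *ICS2* had 0.022. *ICS1* and *ICS2* were also not called without replicate 4. The receptor gene *NPR1* (0.039), the upstream regulators *EDS1* (-0.020) and *PAD4* (-0.021) and the transcription factor gene *WRKY70* (-0.034) were not called, although *EDS1* (-0.14) and *PAD4* (-0.087) were called lower by the scanner software's ratio.

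The 4 called core loci with the largest ratios were enzymes. *BSMT1*, the methyltransferase that turns salicylate into its volatile methyl ester, had -0.76 ± 0.40 (SD, n = 4), and -1.74 by the scanner software's ratio. *DLO1*, a salicylate hydroxylase, had 0.39 ± 0.15, *UGT74F2*, a salicylate glucosyltransferase, had -0.32 ± 0.12, and *ALD1*, which acts in pipecolate synthesis, had 0.30 ± 0.19. *ALD1* was not called without replicate 1 (0.25) and had 0.59 by the scanner software's ratio, and *UGT74F2* was not called with median centring (-0.11). Without replicate 1 the list had 5 called loci and without replicate 4 it had 8, against 15 with all arrays.

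A second list held 13 other genes known as outputs of salicylate or of systemic resistance. Of these 5 were called higher and 4 lower, beside 9.33% and 7.96% of all loci, with a median of 0.049. The 4 with the largest ratios were *ARD3*, an acireductone dioxygenase gene, with 0.56 ± 0.089, *LLP1*, a legume lectin-like gene, with 0.49 ± 0.090, *PNP-A*, a natriuretic peptide gene, with 0.45 ± 0.051, and the senescence gene *SAG13* with 0.44 ± 0.12 (SD, n = 4 each). The 4 called lower lay between -0.33 (*NHL10*) and -0.13 (*GRXS13*). With median centring 5 were called higher and 1 lower.

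**Figure D5:**
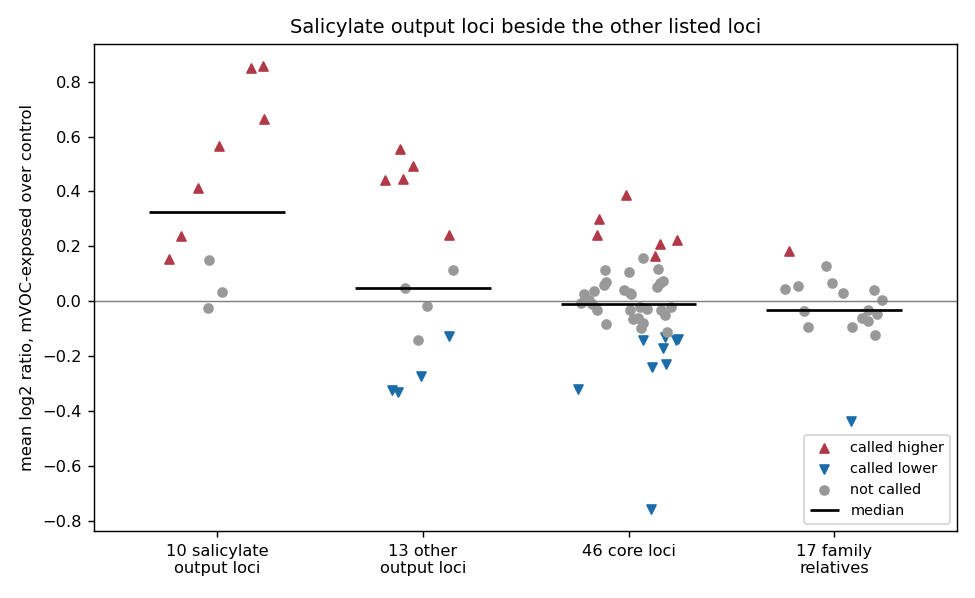
Mean log2 ratio of exposed over control seedlings (vertical axis) for the 10 members, 13 other output loci, 46 core loci and 17 family relatives, 1 point per locus, coloured by call, with the median of each list as a bar. Medians were 0.33, 0.049, -0.0088 and -0.033, and the members were chosen with these ratios known.

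Relatives of the members, whose transcripts could share hybridisation with a member probe, were followed as 17 loci. None was listed for *PCC1*, AT3G22235, AT3G22240 or *GRX480*, and shared hybridisation was not tested for any member. Beside 9.33% of all loci called higher and 7.96% lower, 1 of these was called higher and 1 lower, with a median of -0.033. They were AT4G14390, which adjoins *ACD6* and had 0.18 ± 0.043, and AT1G52200, listed as a relative of the *PCR* genes, which had -0.44 ± 0.081 (SD, n = 4 each) and -0.20 with median centring. With median centring 1 was called higher and 8 lower. The closest relatives of *PR1*, *PR2*, *PR5* and *PCR1* on the list were not called. The list does not hold every relative of *PR1*, and AT1G50060, which the annotation of the study places in the same CAP superfamily, had 0.83 and was called higher. *PRB1*, a basic relative of *PR1* that lies next to it, had 0.0028, against 0.57 for *PR1*. The glucanase genes *BG3* and *BG1* had -0.13 and 0.067, against 0.66 for *PR2*, which lies between them in gene order, and *BG3* has no settled direction. It had 0.22 by the scanner software's ratio, not called, and was called lower by its brighter probe alone (-0.27), with median centring (-0.25), with the marked spots left out (-0.14), and, at an unchanged ratio, with dim probes left out or slide as a fixed block. The thaumatin-like gene *TLP-3*, which adjoins *PR5*, had 0.13, against 0.24 for *PR5*, and it was called higher by the scanner software's ratio (0.20) and with the marked spots left out (0.15). *PCR3* had 0.045.

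Genes with ratios most like those of *PR1* and *PCR1* were sought by the root mean square difference of the 4 log2 ratios. For *PR1* these were AT2G33720 (0.074), AT4G33720 (0.085) and *FAMT*, a farnesoic acid methyltransferase gene (0.090). AT4G33720 had a mean log2 ratio of 0.63, against 0.57 for *PR1*, and was called higher. AT2G33720 stood at 1.49-fold, but it was not well above background in any control sample, and its log2 ratio on replicate 4 was 0.12. For *PCR1* they were AT1G50060 (0.084), AT5G55780 (0.12) and the transporter gene *ABCG40* (0.13). All 6 had their lowest ratio on replicate 4, as *PR1* and *PCR1* did, so this likeness over 4 arrays includes the low values of that array. In AT1G50060 the ratios were 1.01, 1.09, 0.93 and 0.29, and in *ABCG40* they were 1.26, 1.08, 1.00 and 0.46.

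Markers of organs moved with exposure as well. Among 6 shoot loci, 3 were called higher and 1 lower, and their summed intensity was 3977360 to 4239060 in exposed seedlings and 3018560 to 3240060 in control seedlings. Of the 32 shoot probes, 13 read *RBCS1A* (0.48) and 8 read *CA1* (0.20), while *LHCB2.1* had -0.28. The median log2 ratio of the shoot loci was 0.16, but 0.043 by the scanner software's ratio and 0.59 with median centring, so its size depended on the scaling. Among 7 root loci 0 were called higher and 3 lower, with a summed intensity of 15969 to 17131 in exposed seedlings and 17015 to 17456 in control seedlings. Of 9 seed storage loci 0 were called higher and 5 lower, and their sum was 2501 to 2778 in exposed seedlings, against 3059 to 3961 in control seedlings. The median log2 ratio of the root loci was -0.11, but -0.037 with median centring and -0.21 by the scanner software's ratio. For the seed loci it was -0.27, -0.32 with median centring and -1.19 by the scanner software's ratio, so these sizes depended on the processing too. The shares over all loci were 9.33% called higher and 7.96% lower. Every shoot and root marker probe was well above background in at least 1 reading, and 3 of 17 seed probes were not in any. The part of these shifts in the ratios of the 10 loci was not tested. In whole seedlings, fewer cells of a type and less RNA per cell cannot be told apart.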

How the data were processed

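Gene expression was measured in whole seedlings on 4 two-colour arrays, each with 1 mVOC-exposed (Cy5) and 1 control (Cy3) sample. Per the files the authors deposited, Agilent Feature Extraction gave a linear, unnormalized median intensity for every spot and for the background around it, and a log10 ratio of Cy5 over Cy3 that the software made after background subtraction and dye normalization. The deposited table of the series was used for replicates 2 to 4, whose columns are the same log10 ratio, and not for replicate 1, whose column holds the error of that ratio. The genome build and gene models behind the probe annotation are not those of the RefSeq table, so no coordinates are given and RefSeq served only for names and gene order.

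Intensities were corrected in the normexp model fitted on all spots (offset 50), then normalized by loess within arrays, in which control and outlier spots had weight 0, in limma 3.58.1 and R 4.3.3. Mean intensities had been planned, and medians were used because the files hold medians. Intensities given per sample were also scaled between arrays (Aquantile) and include the offset. The mean of the 4 ratios was tested with limma (lmFit and eBayes) for 43603 probes and, on the mean of the probes of a locus, for 29030 loci, with Benjamini-Hochberg adjustment. RefSeq held 28595 of these loci and all 10 members. The scripts were tested on simulated data. Members and gene lists were chosen with earlier results of these data known. All members were named, and of each other list the 4 called loci with the largest absolute ratio, the closest relatives and the 3 loci most like *PR1* and *PCR1*; *ICS1*, *ICS2*, *PBS3*, *NPR1*, *EDS1*, *PAD4*, *WRKY70*, *NHL10* and *GRXS13* were named after their values were seen. As both samples of an array share its spots, the array was the block: deviations from the group means correlated between samples of 1 array (r of 0.44, 0.51, 0.25 and 0.41) and less between arrays (-0.35 to 0.11). Taking deviations from means of only 4 arrays pushes the values between arrays down, so the contrast is in part built in.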

Additional observations from a re-analysis of the deposited data

Results flagged for a closer look

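Of 38 sets of 4 ratios examined (member loci, member probes and named loci of the lists), 1 held a sample far from the others by Dixon's 95% critical value. The log2 ratio of *PNP-A*, a natriuretic peptide gene, was 0.37 on replicate 2, against 0.47 to 0.48 on the other 3 arrays. With the marked background spots left out it was also 0.37. Chance alone flags about 5% of such sets. *PR1* and *PCR1* on replicate 4 did not pass this value.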

How the results depend on the processing

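No called member changed direction under any alternative. Leaving out 1 array gave 4401 to 6644 called probes (7939 with all), 10 to 12 member probes, 6 to 8 member loci, 5 to 12 core loci, 7 to 8 other output loci and 2 relatives. Probes called were 13227 with the scanner software's ratio, 17200 with median centring, 3352 with plain background subtraction and 3815 with no replicate block, which left 7 member loci called. With no offset in normexp 20 probes and 3 member probes were called, and with an ordinary one-sample test without shared variance 6 and 1. Both gave 0 called member loci, core loci, other output loci and relatives, where limma called 7, 15, 9 and 2. At an unadjusted p below 0.05 there were 8 member loci in the limma fit, and 7 both with no offset and by the ordinary test. The unadjusted counts of core loci, other output loci and relatives were 19, 11 and 4 in the limma fit. They were 17, 11 and 5 with no offset and 15, 8 and 3 by the ordinary test. The share of all loci at this unadjusted threshold was not counted. As the members were also chosen from this contrast, nothing is read from these unadjusted counts. Median centring called all 17 member probes, 16 higher and 1 lower, and 9 relatives. Plain subtraction called 5 core loci. Relatives were 1 in the deposited table and 4 with marked spots left out. For single members 19 alternative values moved by at least 1 SD of the 4 arrays. For *PR1* the ratio ranged from 0.45 to 1.06 and for *PCR1* from 0.61 to 1.32, and the signs of *PCR2* and *GRX480*, which were not called, turned. Signal over background limits the dim probes of *PR1*, *PCR1* and *GRX480*, the dimmest of which, of *GRX480*, had -0.051 and -0.31 by the scanner software's ratio.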
